A study of Homo sapiens with 4 samples.

Results

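A set of 10 genes of the integrated stress response was followed in SCC-15, a human cell line from a squamous cell carcinoma of the tongue, after transfection with a microRNA mimic or a negative control oligonucleotide. It comprises the transcription factor gene ATF4, its stress targets DDIT3, TRIB3 and CHAC1, the asparagine synthetase gene ASNS, the serine synthesis genes PHGDH, PSAT1 and PSPH, and the mitochondrial folate genes SHMT2 and MTHFD2. Members were all probe sets (groups of array probes read as 1 value) that the platform annotation assigned to exactly 1 of these genes. This gave 32 of 44988 such probe sets, for 10 of 18132 genes. Of the 32, 31 were bright enough to be tested, and each of the 10 genes kept at least 1.

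The mimic group (2 arrays, named mimic 1 and 2 here) came from cells transfected with a synthetic microRNA at 30 nM, and the control group (2 arrays) from cells transfected with miR-NC, a negative control. Both groups were transfected 24 h after plating, and RNA was taken 36 h later. The sources disagree on the mimic: the series title and design text name miR-762, whereas the labels of both mimic samples name miR-585-5p, and the values below do not depend on which is right. Replicates were not stated to be separate cultures, so that p-values here reflect only array-to-array spread, possibly technical, and all arrays come from 1 cell line. Values are log2 of the deposited intensities, and differences are mimic minus control on that scale.

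The integrated stress response begins when kinases phosphorylate the translation factor eIF2, which slows most protein synthesis but lets the ATF4 messenger be translated. ATF4 protein then binds C/EBP-ATF response elements and switches on genes for amino acid synthesis and uptake, and under lasting stress the genes of CHOP (DDIT3), TRIB3 and CHAC1. Because much of ATF4's control is at translation, which an array does not measure, the level of its messenger is only part of its activity. Serine made from glycolysis feeds glycine and the folate-bound carbon units of nucleotide synthesis.

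The mature sequences of both candidate mimics are shown because the sources leave the choice between them, with the seed (bases 2 to 8, which pairs with targets) in capitals. They are from RefSeq, GRCh38.p14, chr16:30893951-30893972 (plus strand) for miR-762 and chr5:169263649-169263670 (minus strand) for miR-585-5p. The 2 seeds differ.
miR-762: gGGGCUGGggccggggccgagc
miR-585-5p: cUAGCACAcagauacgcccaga

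Array medians were between 17.2 and 17.5 on the linear scale. Replicate arrays differed by an SD of 0.158 (mimic) and 0.184 (control) over all probe sets, against 0.328 to 0.334 between groups. The squamous epithelial markers used here, from KRT5 to EPCAM, were bright in every array, with 6 genes between 9.48 and 12.32 in mimic arrays and between 9.27 and 11.86 in control arrays. Markers of endothelial cells (4 genes), fibroblasts (6) and leukocytes (5) reached at most 6.10 in mimic arrays and 5.75 in control arrays. The dim level of 2.83 was passed by 4 of 4 endothelial, 3 of 6 fibroblast and 3 of 5 leukocyte markers, while COL3A1, DCN, LUM, PTPRC and LYZ were under it. The squamous markers averaged 10.41 and 10.44 in mimic arrays, against 10.19 and 10.13 in control arrays. KRT5, KRT14 and EPCAM were higher in both mimic arrays. The gap was widest for KRT14, at 10.74 and 10.86 in mimic arrays, against 9.81 and 9.48 in control arrays. SFN and DSG3 were lower in both mimic arrays, and CDH1 overlapped between groups. The leukocyte markers averaged 3.54 and 3.58 in mimic arrays, against 3.46 and 3.39 in control arrays. Of these, CD68 and CD14 were higher in both mimic arrays. CD3E, PTPRC and LYZ were not separated between groups and lay slightly lower on average in mimic arrays. The fibroblast markers averaged 2.81 and 2.90 in mimic arrays, against 3.00 and 3.05 in control arrays, and the endothelial ones 4.14 and 4.19 in mimic arrays, against 4.28 and 4.32 in control arrays. None of these 4 averages overlapped between groups, and their part in the results was not tested.

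Of the 10 genes, 7 rose in the mimic arrays, 0 fell and 3 did not pass (limma, Benjamini-Hochberg adjusted p under 0.05 over 14340 genes; 0 members were lower at an unadjusted p under 0.05). Over all genes tested, 17.7% rose and 12.3% fell, so that 59% of calls were higher, against 44% after a further quantile normalization. The median difference was 0.36 over the members and -0.02 over all genes. The members were chosen with earlier results of these data known, so these contrasts with all genes are descriptions and not tests. Mimic and control arrays did not overlap for any of the 10 members, which was also so for 70.4% of all genes. The asparagine and serine synthesis genes moved most: PSAT1, PHGDH, ASNS and PSPH rose 1.58-fold to 2.06-fold. ATF4, TRIB3 and CHAC1 rose 1.22-fold to 1.34-fold, and DDIT3, SHMT2 and MTHFD2 did not pass. In bulk RNA, a change in the share of cells that express a gene and a change in its RNA per cell cannot be told apart. Without control replicate 1, only ASNS and PSAT1 of the members passed, and without control replicate 2, ASNS, PSAT1 and PSPH. Leaving out either mimic array removed every call, for the members and for all other genes tested. On leaving out each array, 9 of 10 member differences were positive. That had to be so, because the groups did not overlap for any of the 10 members, and it adds no separate evidence.

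**Figure D1:**
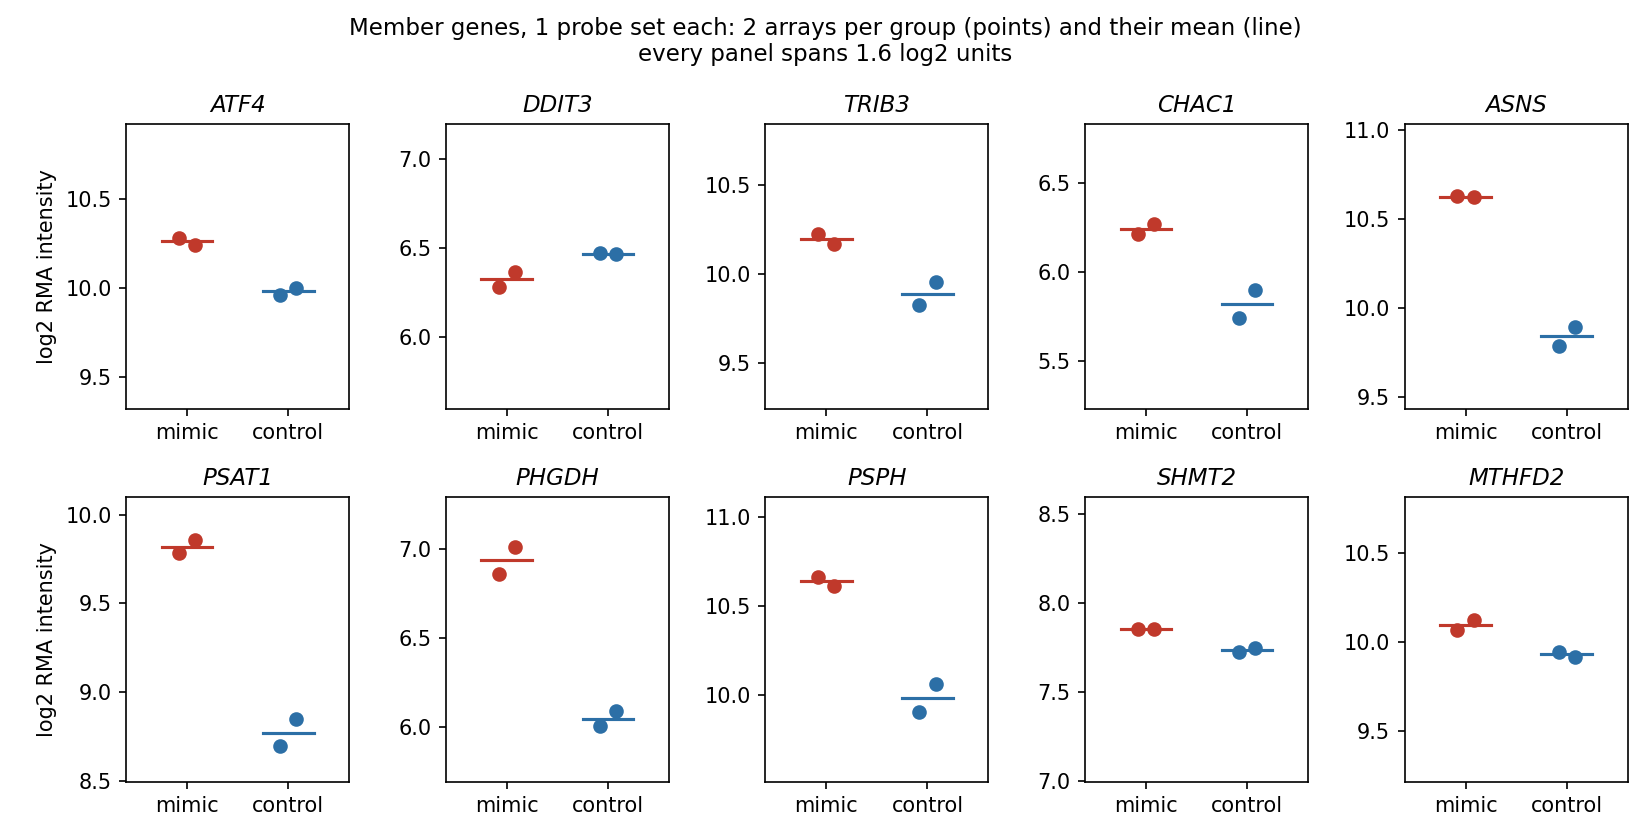
Log2 RMA intensity (y axis) of the 10 member genes, each by its brightest probe set, in the 2 mimic arrays (red, left) and the 2 control arrays (blue, right), with the mean of each group as a line. All panels span the same height, so the gap between lines can be compared: it is widest for PSAT1 (1.05) and PHGDH (0.89), and only DDIT3 lies lower in mimic (-0.14).

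PHGDH encodes phosphoglycerate dehydrogenase, which draws 3-phosphoglycerate out of glycolysis in the entry step of serine synthesis. Its probe set stood at 6.86 and 7.01 in mimic arrays, against 6.00 and 6.09 in control arrays. Both mimic arrays were far above both controls, and the gap of 0.89 ± 0.078 (SE) was many times the distance between replicates (1.85-fold, adjusted p = 0.0029). It ranked 399 of the 14340 genes by difference, counted from the largest increase. A brighter probe set annotated to both PHGDH and MZT2B was left out of the comparisons. It differed by only 0.11 (10.81 and 10.82 in mimic arrays, against 10.70 and 10.71 in control arrays), and which gene it reads was not tested. PHGDH was read by 1 single-gene probe set, so no second probe set of its own bears on the value. Its call was lost on leaving out any array, with differences from 0.82 to 0.96 and an adjusted p from 0.0513 to 0.059.

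PSAT1 encodes phosphoserine aminotransferase, which carries out the next step with glutamate as nitrogen donor. It had the largest difference of the 10 members. Its brightest probe set stood at 9.78 and 9.85 in mimic arrays, against 8.70 and 8.85 in control arrays, a rise of 1.05 ± 0.077 (SE), or 2.06-fold (adjusted p = 0.00201). Of its 8 probe sets, 5 rose, 0 fell and 3 did not pass in a fit of all 31711 probe sets, in which 14.5% rose and 7.95% fell. The 5 that rose did so by 1.05 to 1.21, at levels from 3.67 in a control array to 9.85 in a mimic array. The 3 that did not pass gave -0.03 (95% interval -0.26 to 0.20), -0.01 (-0.27 to 0.26) and 0.21 (-0.08 to 0.50), and all 3 stood between 5.16 and 5.67 in every array. The probe sets thus fall into 2 kinds, which also differ in the GenBank records that the annotation gives as their targets: 3 records for those that rose and 2 others for those that did not, with 0 in common. Which transcripts the 2 kinds read was not tested. With the mean of all its probe sets in place of the brightest, PSAT1 rose by 0.75 (adjusted p = 0.00369).

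PSPH encodes phosphoserine phosphatase, which releases serine in the last step. It stood at 10.66 and 10.61 in mimic arrays, against 9.90 and 10.06 in control arrays, a rise of 0.66 ± 0.076 (SE), or 1.58-fold (adjusted p = 0.0058). A second, dimmer probe set stood at 5.20 and 5.13 in mimic arrays, against 4.45 and 4.37 in control arrays, and rose by 0.76 (adjusted p = 0.00431 over all probe sets). Both probe sets therefore placed the mimic arrays above the controls by a like amount. Another, at 1.01 to 1.17 in all arrays, was below the dim level and was not tested. The brightest probe set is of the _x_at kind, whose probes may also match related transcripts, and PSPH has a pseudogene copy, so that part of its signal may not be its own. The dimmer tested probe set is of the _s_at kind, so no tested PSPH probe set lay outside the _s_at and _x_at kinds. PSPH no longer passed without control replicate 1, where it differed by 0.58 (adjusted p = 0.0528). The same was so without mimic replicate 1, at 0.63 (adjusted p = 0.0823), and without mimic replicate 2, at 0.68 (adjusted p = 0.0792).

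ASNS encodes asparagine synthetase, which makes asparagine from aspartate and glutamine and is among the best known targets of ATF4. It stood at 10.63 and 10.62 in mimic arrays, against 9.79 and 9.89 in control arrays, a rise of 0.78 ± 0.065 (SE), or 1.72-fold (adjusted p = 0.00255). The mimic arrays were nearly identical and the spread lay in the controls. All 4 ASNS probe sets rose, by 0.76, 0.78, 0.81 and 0.997, with adjusted p between 0.00197 and 0.00389 over all probe sets. The largest of these, 2.00-fold, came from the dimmest of the 4 and the only one not of the _s_at or _x_at kind, which had 8.68 and 8.65 in mimic arrays, against 7.64 and 7.69 in control arrays. No other member with more than 2 probe sets had all of them past the threshold.

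The promoter of ASNS is shown because it holds a C/EBP-ATF response element, the kind of site that ATF4 binds. The motif TGATGNAAN (N is any base) was searched on both strands of the 250 bases before each start in a promoter table, from RefSeq, GRCh38.p14. The annotated genes of ASNS and TRIB3 reach further upstream than these starts, and their outermost ends were not searched. At ASNS a match lies on the gene's own strand 68 to 60 bases before the start, at chr7:97872468-97872476, in capitals in the window chr7:97872409-97872658 (minus strand).
ASNS: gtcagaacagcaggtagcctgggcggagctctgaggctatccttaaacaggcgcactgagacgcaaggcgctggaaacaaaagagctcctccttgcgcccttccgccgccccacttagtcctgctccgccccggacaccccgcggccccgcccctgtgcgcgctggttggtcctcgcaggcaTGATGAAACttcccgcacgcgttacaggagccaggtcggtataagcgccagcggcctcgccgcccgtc

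The same window of PSAT1, the member with the largest difference, is shown beside it because it holds no match (chr9:78296875-78297124, plus strand).
PSAT1: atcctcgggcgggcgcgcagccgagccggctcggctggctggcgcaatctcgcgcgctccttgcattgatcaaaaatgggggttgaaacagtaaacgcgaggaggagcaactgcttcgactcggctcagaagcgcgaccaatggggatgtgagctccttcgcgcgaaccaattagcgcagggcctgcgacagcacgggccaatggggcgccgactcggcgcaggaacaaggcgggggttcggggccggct
Of the 10 members 8 had an entry in the promoter table, with 13 windows in all. The motif was in 2 of the 8 genes, ASNS and CHAC1, against 3.87% of all 27305 genes, and in 2 of the 13 windows, against 3.13% of all 35116. The second ASNS window, chr7:97872166-97872415, held no match. PSPH and SHMT2 are named only. ATF4, DDIT3, TRIB3, PSAT1, PHGDH and MTHFD2 held no match in these windows, which says nothing of sites elsewhere. A match is a description of letters, and binding was not measured here.

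CHAC1 encodes a glutathione-degrading enzyme that is induced by ATF4. Its brighter probe set stood at 6.22 and 6.27 in mimic arrays, against 5.74 and 5.90 in control arrays, a rise of 0.42 ± 0.077 (SE), or 1.34-fold (adjusted p = 0.0179). A second probe set, close to the dim level, went the other way at 3.14 and 2.95 in mimic arrays, against 3.67 and 3.22 in control arrays (-0.40, 95% interval -0.81 to 0.02, adjusted p = 0.14). The 2 probe sets thus disagreed in sign, and their mean gave 0.01 with an adjusted p of 0.908. The call was also lost on leaving out any array, with differences from 0.34 to 0.50 and an adjusted p from 0.0547 to 0.133. In the CHAC1 promoter window (chr15:40953221-40953470, plus strand) the motif lies on the opposite strand, 210 to 202 bases before the start at chr15:40953261-40953269, in capitals below. It also holds the stricter form TGATGCAA, which overlaps it and which is in 0.772% of all windows.
CHAC1: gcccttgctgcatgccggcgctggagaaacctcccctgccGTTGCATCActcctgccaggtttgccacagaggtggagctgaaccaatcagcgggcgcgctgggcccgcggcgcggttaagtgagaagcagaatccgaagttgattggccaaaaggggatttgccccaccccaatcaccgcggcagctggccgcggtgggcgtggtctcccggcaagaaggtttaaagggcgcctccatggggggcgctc

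ATF4 itself stood at 10.28 and 10.24 in mimic arrays, against 9.96 and 10.00 in control arrays. All 4 values were tight within groups, and the rise was 0.28 ± 0.058 (SE), or 1.22-fold (adjusted p = 0.0245). It was read by 1 probe set, of the _x_at kind. TRIB3, a pseudokinase gene induced by ATF4 and CHOP that feeds back on ATF4, stood at 10.22 and 10.17 in mimic arrays, against 9.83 and 9.95 in control arrays (0.31 ± 0.070 SE, 1.24-fold, adjusted p = 0.0324). Its dimmer probe set had overlapping groups, with 5.65 and 5.56 in mimic arrays, against 5.56 and 5.39 in control arrays (0.13, adjusted p = 0.316). The increases of ATF4 and TRIB3 were small, and both calls were lost on leaving out any array, with an adjusted p from 0.0743 to 0.152 for ATF4 and from 0.0674 to 0.181 for TRIB3.

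DDIT3 encodes CHOP, the transcription factor that links lasting stress to cell death. It stood at 6.28 and 6.36 in mimic arrays, against 6.47 and 6.47 in control arrays. Both mimic arrays lay below both controls, with a difference of -0.14 ± 0.061 (SE) that did not pass (95% interval -0.30 to 0.01, adjusted p = 0.133). The second DDIT3 probe set gave -0.12 (adjusted p = 0.249), with 5.97 and 6.05 in mimic arrays, against 6.15 and 6.11 in control arrays. After a further quantile normalization the difference of DDIT3 in its brightest probe set was -0.25 and passed over all genes tested (limma adjusted p = 0.0324). DDIT3 was the only member with a negative difference in its brightest probe set.

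SHMT2 and MTHFD2 act in mitochondria, where SHMT2 splits serine into glycine and a folate-bound carbon unit and MTHFD2 oxidises that unit towards formate. SHMT2 stood at 7.85 and 7.86 in mimic arrays, against 7.72 and 7.75 in control arrays, a difference of 0.12 ± 0.056 (SE) that did not pass (95% interval -0.02 to 0.26, adjusted p = 0.163). Its other 3 probe sets gave 0.08 to 0.21 and did not pass either. MTHFD2 stood at 10.07 and 10.13 in mimic arrays, against 9.95 and 9.92 in control arrays, a difference of 0.17 ± 0.059 (SE; 95% interval 0.01 to 0.32, adjusted p = 0.0907). Its other 4 probe sets gave 0.03 to 0.14, and in 2 of the 5 the groups overlapped. With an intensity trend in limma's prior MTHFD2 passed (adjusted p = 0.0156). For both genes the interval ends below the difference of PSPH, 0.66, the smallest of the asparagine and serine synthesis genes, though differences between genes were not tested.

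**Figure D2:**
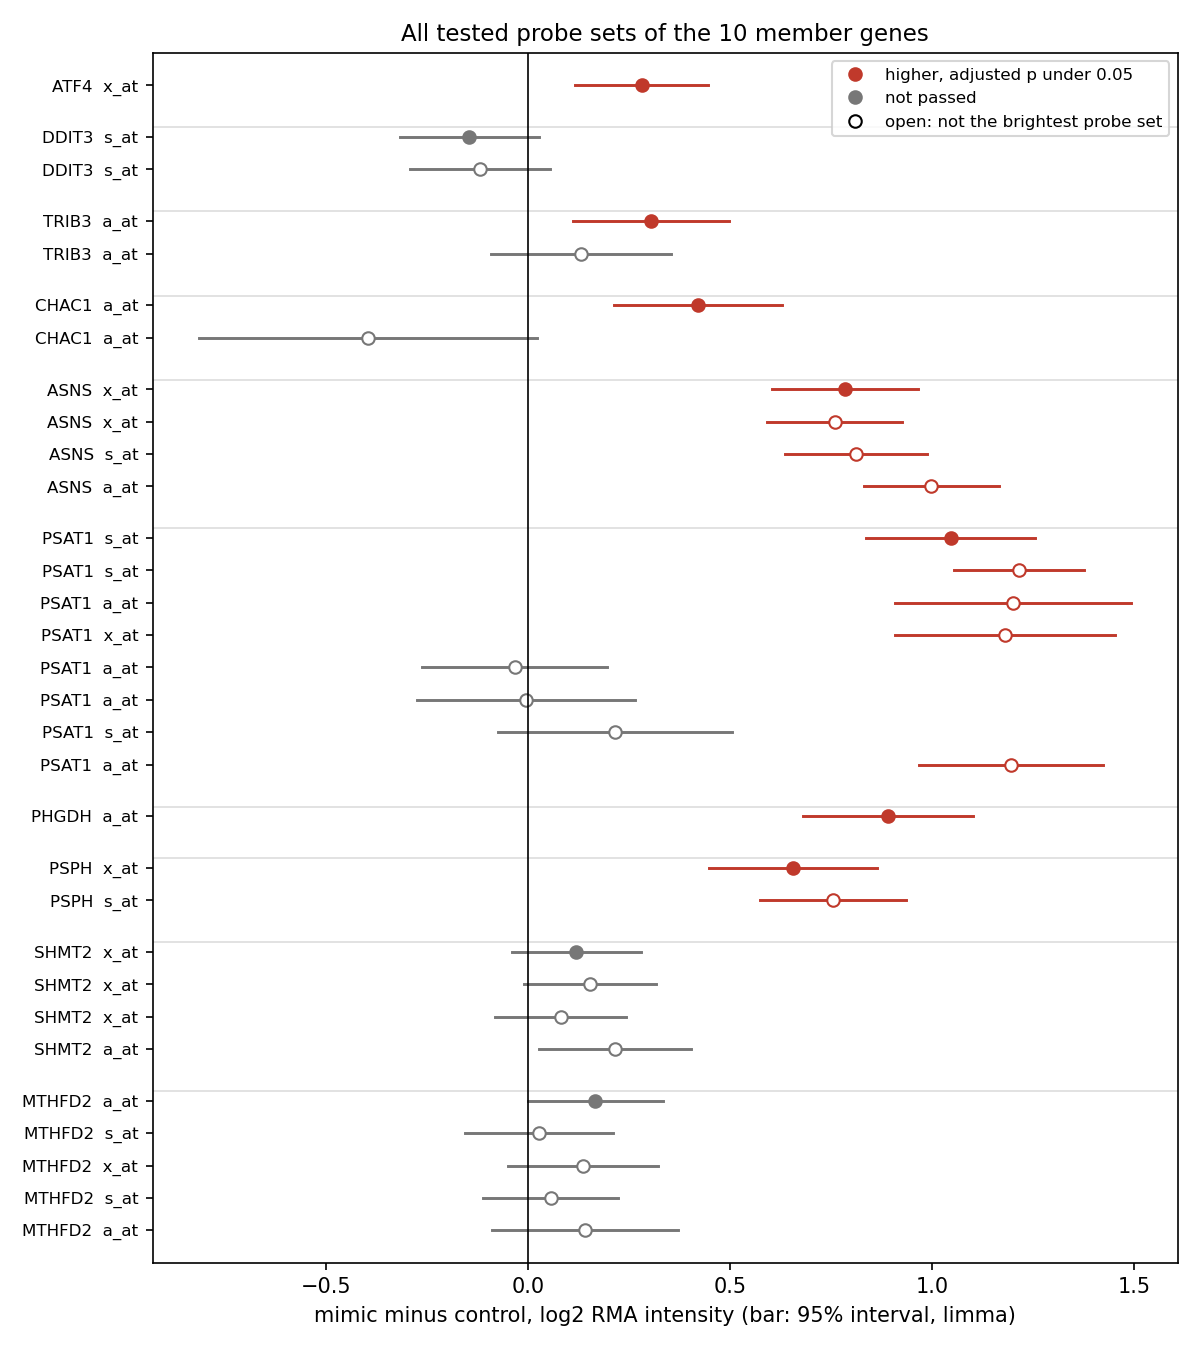
Difference between mimic and control on the log2 scale (x axis) for each of the 31 tested probe sets of the 10 genes (rows, brightest first within a gene), with limma's 95% interval as a bar. Filled points are the brightest probe set of each gene and red marks those called higher over all probe sets. All 4 ASNS probe sets lie between 0.76 and 0.997, PSAT1 splits into 5 at 1.05 to 1.21 and 3 at -0.03 to 0.21, and those of CHAC1 differ in sign.

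Counted by probe set, 15 of the 31 tested rose, 0 fell and 16 did not pass, where 14.5% of all probe sets rose and 7.95% fell. Probe sets of 1 gene share its messenger and are not independent. Groups did not overlap in 26 of the 31, and in 66.6% of all 31711. With any 1 array left out, no probe set passed in limma.

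**Figure D3:**
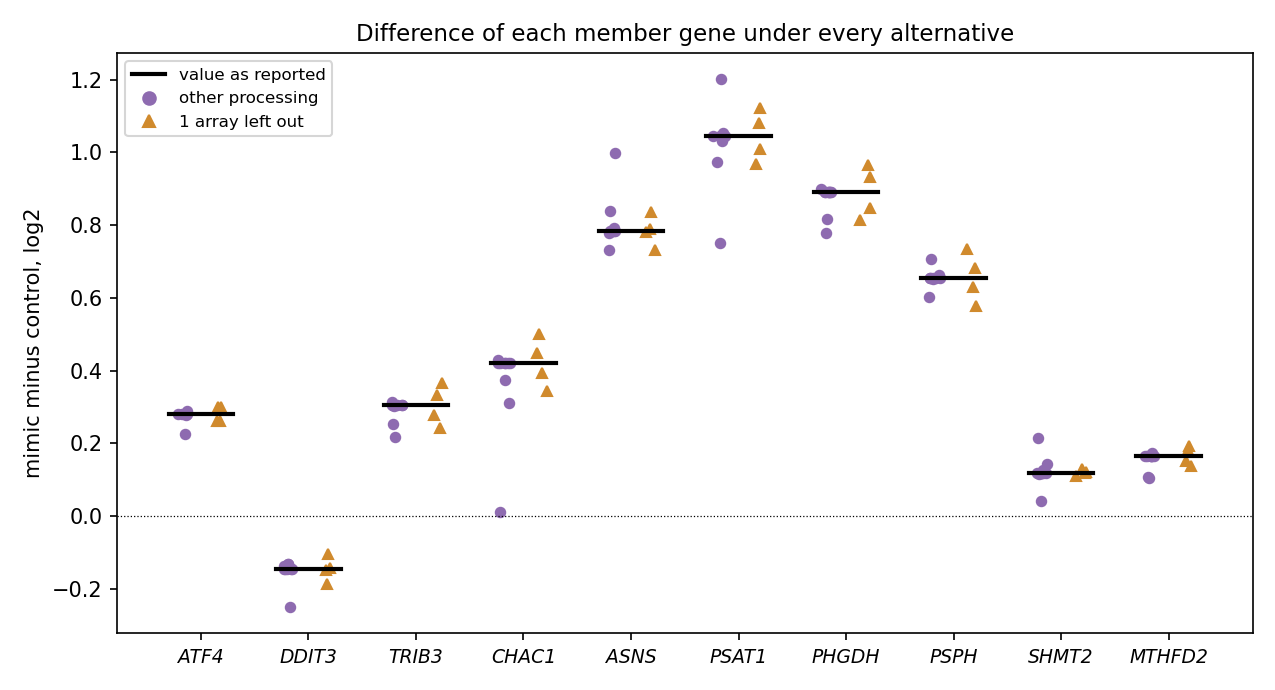
Difference of each member gene on the log2 scale (y axis) as reported (black line), under other processing choices (violet circles) and with 1 array left out (orange triangles). DDIT3 lies below 0 throughout and the other 9 above, and the value that moves most is that of CHAC1, at 0.01 with the mean of its 2 probe sets against 0.42.

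A further 8 lists of the same pathways were read beside the members. IMPACT, PPP1R15A, DDIT4, PMAIP1, BBC3, SLC7A11, GLUD1, GOT1 and HSPA5 are named there after their values were seen, to complete small counts. Each count is to be read against the 17.7% of genes that rose and the 12.3% that fell, and leaving out any array left at most 2 genes called higher and 1 lower in any of these lists.

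Upstream of ATF4, among 18 genes of the eIF2 kinases, eIF2, its exchange factor eIF2B and its phosphatase, 2 rose, 3 fell and 13 did not pass (median 0.06). Both regulatory subunits that direct the phosphatase to eIF2 were called lower. PPP1R15B fell by 0.52 (7.32 and 7.28 in mimic arrays, against 7.90 and 7.74 in control arrays, limma adjusted p = 0.0107). The stress-induced PPP1R15A fell by 0.27, a call near the threshold (limma adjusted p = 0.0448). Of the eIF2B subunits, EIF2B5 fell by 0.32 and EIF2B3 rose by 0.30. IMPACT, an inhibitor of the kinase GCN2, rose by 0.26 (limma adjusted p = 0.0446). Its call was lost without a filter on dim probe sets and after a further quantile normalization. The 4 eIF2 kinase genes EIF2AK1 to EIF2AK4 had differences from -0.03 to 0.13, and none passed.

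Among 10 bZIP partners and relatives of ATF4, 2 rose, 1 fell and 7 did not pass (median -0.02). CEBPG, a dimer partner of ATF4, stood at 9.31 and 9.30 in mimic arrays, against 8.40 and 8.23 in control arrays (0.99 ± 0.078 SE, adjusted p = 0.0023), although its other probe set gave 0.37. JDP2, a bZIP repressor gene, rose by 0.71 (0.09 in the lowest of its 3 probe sets). ATF3, a stress-induced factor gene downstream of ATF4, fell by 0.81 ± 0.069 (SE), with 6.14 and 6.17 in mimic arrays, against 6.90 and 7.03 in control arrays (adjusted p = 0.00279; 3 probe sets, -0.81 to -0.19). So 2 of the named bZIP genes went up and ATF3, like DDIT3, lay lower in the mimic arrays.

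Other stress targets of ATF4 and CHOP went both ways, with 3 of 11 tested genes higher, 3 lower and 5 not passed (median -0.07). ERO1A, an oxidase of the endoplasmic reticulum that is also induced by hypoxia, stood at 9.02 and 9.15 in mimic arrays, against 7.04 and 6.86 in control arrays (2.13 ± 0.089 SE, adjusted p = 0.00102; 0.72 in its other probe set). STC2, a secreted glycoprotein gene, rose by 0.60 and DDIT4, an mTORC1 inhibitor gene, by 0.23. The call of DDIT4 (limma adjusted p = 0.0432) was lost after a further quantile normalization. GDF15, the gene of a stress-induced cytokine, fell by 0.74 with all 5 of its probe sets, and the pro-apoptotic genes PMAIP1 and BBC3 fell by 0.44 and 0.23. The call of BBC3 was near the threshold (limma adjusted p = 0.048, against 0.016 for PMAIP1).

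Amino acid transporters of the ATF4 response had 4 of 9 genes higher, 0 lower (0 also at an unadjusted p under 0.05) and 5 not passed, with a median of 0.31. The groups did not overlap for any of the 9, which was also so for 70.4% of all genes. The neutral amino acid transporter gene SLC1A4 rose by 0.66, but by 0.32 with the mean of its 5 probe sets, of which 2 had negative differences. The glutamine transporter gene SLC1A5 rose by 0.45, the cationic amino acid transporter gene SLC7A1 by 0.32 and the cystine transporter gene SLC7A11 by 0.26. SLC7A1 did not pass without a filter on dim probe sets (0.32, adjusted p = 0.0592) or after a further quantile normalization (0.21, adjusted p = 0.108). SLC7A11, near the threshold as reported (limma adjusted p = 0.0466), did not pass in either setting. The list headed proline, aspartate, glutamate and cysteine synthesis had 5 of 9 higher, 0 lower (0 also at an unadjusted p under 0.05) and 4 not passed, with a median of 0.29. It also holds GLUL and ASS1, which use up glutamate and aspartate. The cysteine synthesis gene CTH differed by 0.01 (limma adjusted p = 0.945). The glutamine synthetase gene GLUL stood at 9.92 and 9.89 in mimic arrays, against 9.08 and 8.81 in control arrays (0.96 ± 0.103 SE, adjusted p = 0.00485). ASS1, which joins aspartate to citrulline, rose by 0.84 (8.26 and 8.26 in mimic arrays, against 7.39 and 7.44 in control arrays). The proline synthesis gene PYCR1 rose by 0.56, GLUD1 by 0.52 and GOT1 by 0.29. The call of PYCR1 was lost with the mean of its 6 probe sets, of which 2 were negative (0.22, adjusted p = 0.0797), and without _s_at and _x_at probe sets (0.22, adjusted p = 0.179).

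Folate and glycine genes other than SHMT2 and MTHFD2 had 6 of 16 higher, 0 lower (1 at an unadjusted p under 0.05) and 10 not passed, with a median of 0.22. The methionine synthase gene MTR rose by 0.53 (1 of 3 probe sets at -0.08). MTHFD1L, which releases formate in mitochondria, rose by 0.51, the highest of its 4 probe sets. The lowest of them gave 0.095, and their mean gave 0.29. DLD, a subunit gene of the glycine cleavage and pyruvate dehydrogenase systems, rose by 0.39. Among 20 genes of cytosolic tRNA synthetases and the tRNA exporter XPOT, 3 rose, 0 fell (0 also at an unadjusted p under 0.05) and 17 did not pass, with a median of 0.04. With an intensity trend in limma's prior, 6 of the 20 rose and 2 fell. The 3 were MARS1 (0.37, with 1 of 4 probe sets at -0.13), XPOT (0.35) and WARS1 (0.34). MARS1 did not pass with the mean of its probe sets (0.19, adjusted p = 0.132), nor XPOT after a further quantile normalization (0.27, adjusted p = 0.0533). In the XBP1 and ATF6 arms, which answer misfolded protein in the endoplasmic reticulum, 3 of 14 genes rose, 1 fell and 10 did not pass (median 0.04). PDIA4, a disulfide isomerase gene, rose by 0.58, XBP1 by 0.32 and the chaperone gene HSPA5 by 0.22, and the cochaperone gene DNAJB9 fell by 0.38. After a further quantile normalization XBP1 did not pass (0.22, limma adjusted p = 0.0693). HSPA5 was near the threshold as reported (limma adjusted p = 0.0412). It did not pass after that normalization or without a filter on dim probe sets.

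**Figure D4:**
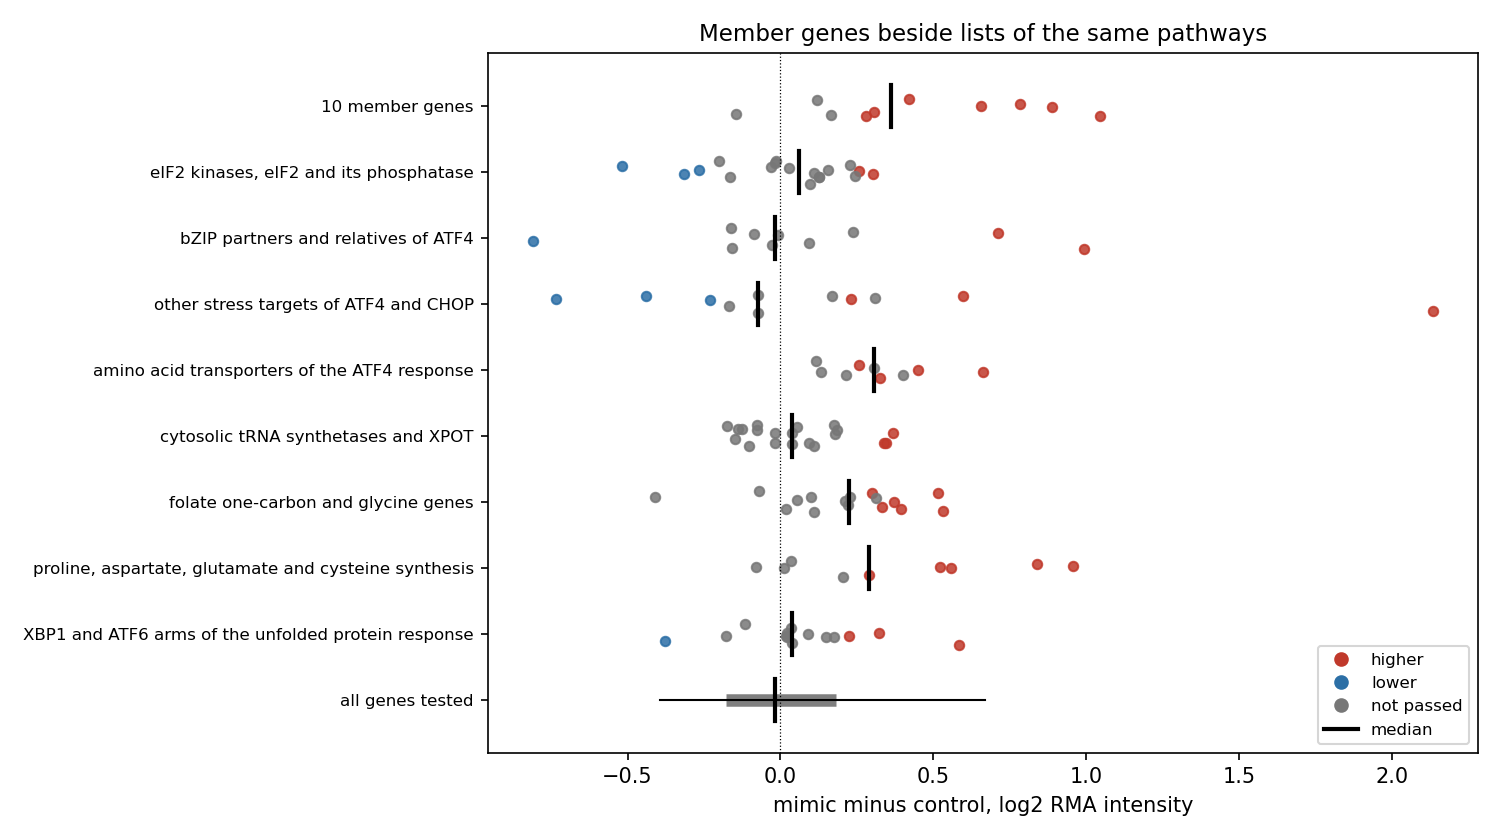
Difference between mimic and control on the log2 scale (x axis) for the member genes (top row), 8 further lists and all 14340 genes (bottom row), with the median of each as a black bar. Points are genes, red if called higher, blue if lower and grey if not passed, and the bottom row shows the 25th to 75th percentiles (-0.18 to 0.18, thick) and the 5th to 95th (-0.39 to 0.67, thin). The medians of the members (0.36), transporters (0.31) and proline, aspartate, glutamate and cysteine genes (0.29) lie right of the others.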

How the data were processed

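Total RNA from SCC-15 cells (2 µg per array, labelled with biotin) was hybridised to 1-colour Affymetrix arrays. The authors deposited 1 intensity per probe set and array, on a linear scale and made with RMA, per the submitters' processing notes; the program and its settings were not given in the sources used. RMA makes arrays comparable by quantile normalization and compresses differences of dim probe sets. Log2 was taken of the deposited intensity. No detection calls were used.

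Of 49293 probe sets, 44988 had 1 gene in the platform annotation, 1832 several and 2473 none; 44961 were renamed through RefSeq and 27 kept their symbol. Probe sets in the lowest 30% by mean (below 2.83) were left out, and the probe set with the highest mean stood for a gene. limma 3.58.1 (R 4.3.3) compared the groups over 14340 genes, and separately over 31711 probe sets, with no block for replicate and p-values adjusted by Benjamini-Hochberg (0.05); the fit was tested on simulated data. Errors are moderated standard errors on 4.98 degrees of freedom. For a single value, the smallest exact two-sided permutation p with 2 arrays per group is 0.333. With arrays, their number limits the precision. Named were all 10 members and, in each of 8 lists, up to 3 called genes of largest difference, with exceptions stated. The members and lists were chosen with earlier results of these data known. Sequences are from RefSeq, GRCh38.p14; 14 alternatives were run.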

Additional observations from a re-analysis of the deposited data

Results flagged for a closer look

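A probe set annotated to both PHGDH and MZT2B was left out of all comparisons because it does not name 1 gene, and it is given here because its signal lay above the control arrays. It stood at 10.81 and 10.82 in mimic arrays, against 10.70 and 10.71 in control arrays, a difference of 0.11 on the log2 scale. The single-gene PHGDH probe set differed by 0.89, so the 2 values are far apart. Which of the 2 genes the shared probe set reads was not tested, and with 2 arrays per group no array could be tested for standing apart.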

How the results depend on the processing

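The direction of all 10 members held under each of the 14 alternatives that gave them a value. ATF4, DDIT3 and PSPH had none once _s_at and _x_at probe sets were dropped. Much of this was fixed beforehand. The filters on dim probe sets, the prior settings and the replicate block left the member differences as reported. Leaving out 1 array cannot turn the sign of a gene whose groups do not overlap, which was so for all 10. The calls of ASNS, PSAT1, PHGDH and PSPH held in every alternative that kept all arrays. Leaving out 1 array, which leaves a lone array assumed to vary like the other group, gave 0 to 3 members higher, 0 to 796 genes higher and 0 to 167 lower, and 0 member probe sets higher. The same omissions gave 0 to 2 higher in the bZIP list and in the proline, aspartate, glutamate and cysteine list, 0 to 1 in the stress target list and in the XBP1 and ATF6 list, and 0 higher in the other 4 lists; they gave 0 to 1 lower in the bZIP and eIF2 lists and 0 in the stress target and XBP1 and ATF6 lists.

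The labels give both groups the same replicate numbers without saying that a number marks a shared culture, and the deviations of same-numbered arrays correlated at -0.00105 over genes. With the number as a replicate block, 5 members were higher (ATF4, adjusted p = 0.0586, and TRIB3, adjusted p = 0.0691, did not pass), 1939 genes higher and 979 lower, and 1 eIF2 gene, 1 stress target, 2 transporters and 1 gene of the XBP1 and ATF6 list were higher.

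A further quantile normalization made 1 member gene and 1 member probe set lower (DDIT3) and gave 2058 genes higher and 2619 lower, against 2544 and 1766 as reported. It gave 1 eIF2 gene, 2 transporters and 1 XBP1 and ATF6 gene higher, and 2 tRNA synthetase genes and 1 folate gene lower. An intensity trend in the prior gave 6 eIF2 genes, 5 stress targets, 8 transporters and 6 tRNA synthetase genes higher, and 2 bZIP genes, 2 tRNA synthetase genes and 1 folate gene lower. Without a filter on dim probe sets, 1 eIF2 gene and 2 transporters were higher. With the mean of a gene's probe sets, 4 eIF2 genes were higher and 1 folate gene lower, and 6 members were higher. Without _s_at and _x_at probe sets, 5 member probe sets, 1 eIF2 gene and 3 genes of the proline list were higher and 0 XBP1 and ATF6 genes lower (limma; DNAJB9 is read by an _s_at probe set). With the lowest 50% of probe sets left out, or with log2(value + 8), 1 folate gene was lower. The cause was not tested. Over single genes, 350 values kept their side of the threshold, 119 lost a call, 2 gained one and 0 changed direction.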
